A study of Mus musculus with 2 samples.

Results

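The 32 genes described here are 20 glycolysis genes, *Hif1a*, which encodes the oxygen-regulated transcription factor HIF-1α, and 11 genes that respond to it. They were chosen by symbol, and all 32 were found among the 27998 genes listed for both libraries. Each had at least 5 CPM in either library, the filter on low values used throughout. CPM is the number of unique molecular identifiers (UMIs) of a gene per 1000000 UMIs of a group of cells. The cells were tumor mononuclear phagocytes with MerTk and CD64 on their surface, sorted from B16 tumors, which grow from a mouse melanoma cell line injected into the skin of C57Bl/6 mice. The first library came from *Fcmr+/+* mice, which keep the gene of a receptor for IgM, and the second from *Fcmr-/-* mice, which lack it in every cell. The study's methods name littermates as controls. The age of these mice and the number pooled per library are not given in the sources used here.

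Because a genotype is 1 library, differences between genotypes are given as values without a test, and how much mice vary is unknown. Intervals are exact at 95% and cover counting error only. Log2 ratios were taken after adding 1 CPM, and a gene was counted as higher or lower from 0.5 on that scale. The *Fcmr+/+* library had 6352 kept cells with 128408544 UMIs (median 17973 per cell), and the *Fcmr-/-* library 7999 cells with 124630621 UMIs (median 12911). The libraries shared 73 cell barcodes. *Fcmr* had 7 and 6 UMIs, too few to check the genotype. The genes of the sort, *Mertk* (62.8 and 48.7 CPM) and *Fcgr1*, which encodes CD64 (250.4 and 394 CPM), were present in both. The summed levels of other cell types' markers, in the same order, were 40.6 and 64.1 CPM for melanoma, 0.864 and 14.5 CPM for T and NK cells (*Ncr1* at 0 in the *Fcmr+/+* library), 31.2 and 47.6 CPM for neutrophils, 7.89 and 12.6 CPM for dendritic cells, 12.4 and 10.4 CPM for B cells, 6.43 and 11.9 CPM for endothelial cells and 0.864 and 0.762 CPM for fibroblasts. The other markers of these lists were each above 0 in both libraries.

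Glycolysis splits glucose into pyruvate in the cytosol and yields ATP without oxygen. In well-oxygenated cells, prolyl hydroxylases mark the HIF-1α protein for destruction through the VHL ubiquitin ligase. When oxygen falls the protein is spared, pairs with ARNT and binds DNA at hypoxia response elements. Its targets include most glycolytic enzymes, the glucose transporter GLUT1 and a feedback arm that includes prolyl hydroxylases. Oxygen acts mainly on the HIF-1α protein, so the level of *Hif1a* RNA is not a measure of its activity. Macrophages in poorly perfused parts of tumors are known to express these genes strongly.

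The core of the hypoxia response element reads ACGTG or, more loosely, GCGTG. Both were searched on either strand from 250 bases before to 50 after the transcription start. A palindromic CACGTG counts as 2 matches, as does CACGCGTG. Promoters were taken from RefSeq on GRCm38.p6, where 30 of the 32 genes had an entry, all but *Bnip3l* and *Ndrg1*. *Ero1l* was matched as *Ero1a*. At least 1 core was found in 24 of the 30 promoters, in 15 of 20 for the glycolysis genes and in 8 of 9 for the HIF response genes. Of all 32851 promoters of this length, 43.8% held at least 1 core and 19.6% held ACGTG. The latter was found for 10 of 20 glycolysis genes and 8 of 9 HIF response genes. The background promoters were not filtered by type of gene, while all 32 genes are protein-coding. The promoters of *Hk1*, *Gpi1*, *Aldoa*, *Tpi1*, *Pkm* and *Mxi1* held neither core in this window. A match is a run of letters and is not evidence of binding.

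The promoters of 6 genes are shown because these genes mark the range of the results. *Egln3*, *Slc2a1* and *Ankrd37* varied widely between cells, *Ldha* is an enzyme whose levels had a typical range, and *Hk3* and *Pfkfb4* did not vary with the others. They lie at chr12:54203825-54204124 (*Egln3*, minus strand), chr4:119108495-119108794 (*Slc2a1*, plus strand), chr8:45999801-46000100 (*Ankrd37*, minus strand), chr7:46845554-46845853 (*Ldha*, plus strand), chr13:55021336-55021635 (*Hk3*, minus strand) and chr9:108991652-108991951 (*Pfkfb4*, plus strand). Each is written 5′ to 3′ on the gene's own strand, with the cores in capitals.
Egln3: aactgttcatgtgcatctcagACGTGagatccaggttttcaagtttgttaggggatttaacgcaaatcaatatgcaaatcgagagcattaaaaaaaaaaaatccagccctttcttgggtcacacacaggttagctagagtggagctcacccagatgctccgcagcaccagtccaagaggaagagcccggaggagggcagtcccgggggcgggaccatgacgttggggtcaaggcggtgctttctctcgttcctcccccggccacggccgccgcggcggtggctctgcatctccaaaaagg
Slc2a1: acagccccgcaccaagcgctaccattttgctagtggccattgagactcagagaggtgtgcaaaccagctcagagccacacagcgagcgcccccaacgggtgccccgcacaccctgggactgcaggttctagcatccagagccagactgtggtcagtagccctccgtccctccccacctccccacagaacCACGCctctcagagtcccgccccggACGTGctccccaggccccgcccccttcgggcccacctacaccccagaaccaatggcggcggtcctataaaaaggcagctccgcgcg
Ankrd37: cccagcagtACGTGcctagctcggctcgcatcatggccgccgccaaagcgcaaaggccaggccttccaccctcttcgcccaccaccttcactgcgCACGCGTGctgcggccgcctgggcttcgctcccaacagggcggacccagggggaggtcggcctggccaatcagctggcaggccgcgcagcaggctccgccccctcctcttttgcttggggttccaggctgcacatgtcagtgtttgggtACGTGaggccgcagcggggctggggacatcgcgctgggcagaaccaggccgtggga
Ldha: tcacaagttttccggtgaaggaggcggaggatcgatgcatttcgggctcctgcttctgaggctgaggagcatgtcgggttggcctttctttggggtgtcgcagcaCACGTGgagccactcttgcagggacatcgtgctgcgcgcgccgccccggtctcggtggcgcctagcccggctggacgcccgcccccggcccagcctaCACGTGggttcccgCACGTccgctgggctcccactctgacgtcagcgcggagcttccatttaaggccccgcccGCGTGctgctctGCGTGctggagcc
Hk3: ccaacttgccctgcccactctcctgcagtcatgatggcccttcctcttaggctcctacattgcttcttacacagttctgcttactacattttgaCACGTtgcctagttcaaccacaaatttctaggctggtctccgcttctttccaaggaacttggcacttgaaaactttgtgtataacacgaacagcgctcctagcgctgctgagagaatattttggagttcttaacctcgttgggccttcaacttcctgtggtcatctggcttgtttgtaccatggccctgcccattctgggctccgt
Pfkfb4: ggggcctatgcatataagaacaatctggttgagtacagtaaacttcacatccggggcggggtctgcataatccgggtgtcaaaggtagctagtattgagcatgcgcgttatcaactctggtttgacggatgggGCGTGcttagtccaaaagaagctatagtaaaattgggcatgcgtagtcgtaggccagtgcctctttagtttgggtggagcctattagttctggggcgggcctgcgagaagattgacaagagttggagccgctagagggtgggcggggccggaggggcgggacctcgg
*Ldha* held the most cores of all 30 promoters, with 5 matches of the first form and 2 of the second. Its promoter is therefore not typical of the enzymes. *Egln3*, which had the widest range between cells, held 1 match, and so did *Hk3*, which did not vary with the hypoxia genes.

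Between the libraries as a whole, few of these genes reached the threshold. Ratios above and below 0 numbered 13 and 7 for the glycolysis genes and 6 and 5 for the HIF response genes. Over all genes that passed the filter they numbered 4395 and 4306. Of 20 glycolysis genes, 2 were higher in *Fcmr-/-* cells (*Hk3* and *Pgk1*) and 0 were lower, and of 11 HIF response genes 0 were higher and 0 lower. Of all 8701 genes with at least 5 CPM, 3.16% were higher and 2.64% lower. The median log2 ratio was 0.15 for the glycolysis genes and 0.012 for the HIF response genes, against 0.0023 over all genes. Summed, the glycolysis genes took 10051 CPM in *Fcmr+/+* and 10312 CPM in *Fcmr-/-* cells (log2 0.037), and the HIF response genes 1369 and 1377 CPM. At a threshold of 0.25, 8 glycolysis genes were higher and 1 lower, and 2 HIF response genes were higher and 2 lower, beside 9.44% and 10.6% of all genes.

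**Figure D1:**
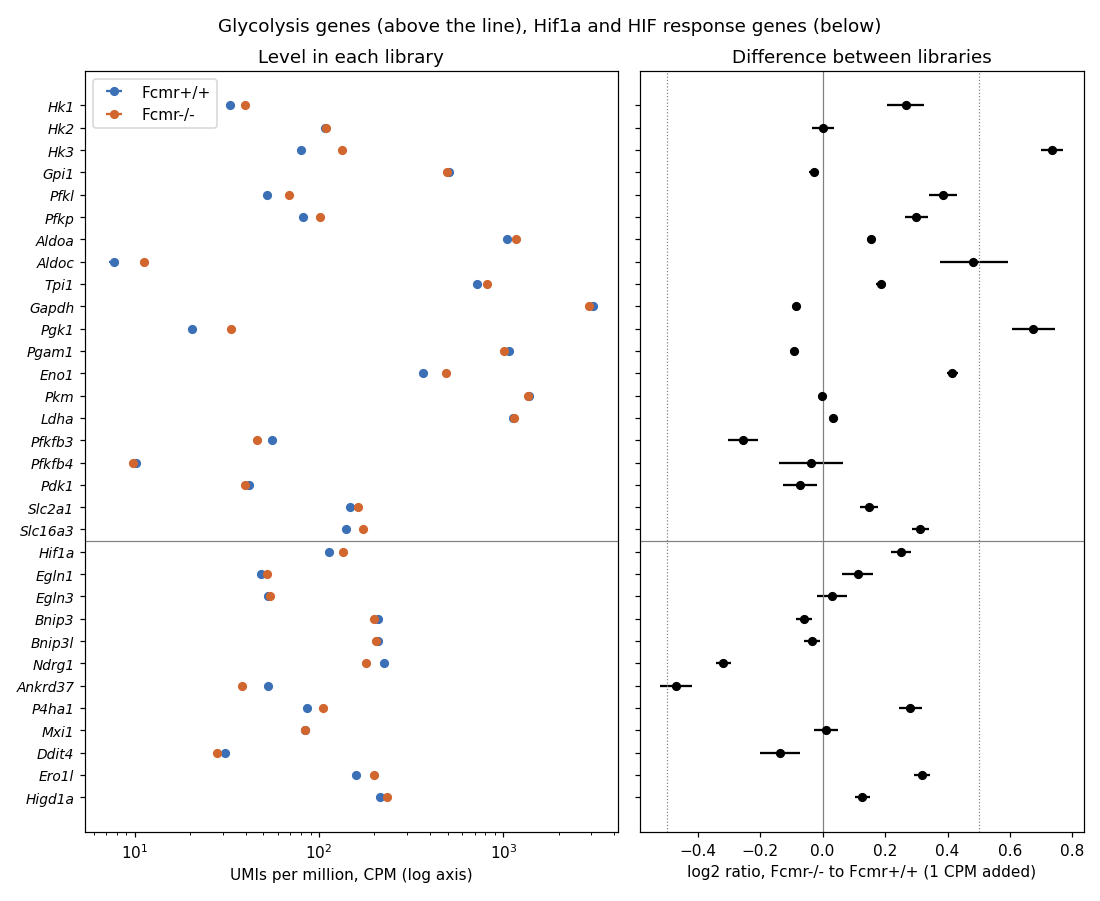
Level of each of the 32 genes in the libraries (left, CPM on a log axis) and log2 ratio of *Fcmr-/-* over *Fcmr+/+* cells after adding 1 CPM (right), with bars for exact 95% intervals of counting error. Dotted lines mark 0.5 in each direction. *Hk3* and *Pgk1* lie beyond it, and *Ankrd37* has the lowest ratio, -0.47.

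The hexokinases trap glucose in the cell by phosphorylating it, and the 3 genes differed from each other. *Hk3* (chr13:55005985-55021385 on GRCm38, minus strand, in the GENCODE annotation, which also gives the gene positions that follow), a form found mainly in myeloid cells, was at 79.7 CPM (78.2 to 81.3) in *Fcmr+/+* and 133 CPM (131 to 135) in *Fcmr-/-* cells, a log2 ratio of 0.74 (0.70 to 0.77). *Hk1* was at 32.9 and 39.8 CPM (0.27). *Hk2*, a well-known HIF-1α target, was at 108 and 108 CPM, with a log2 ratio of 0.0011 (-0.033 to 0.035).

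The upper enzymes turn glucose 6-phosphate into triose phosphates. Of these 6 genes, 5 had a ratio above 0 and none reached 0.5. The phosphofructokinases *Pfkl* and *Pfkp*, at the main control step, had log2 ratios of 0.39 (52.4 and 68.8 CPM) and 0.30 (82.3 and 102 CPM). The aldolase gene *Aldoc*, with few UMIs, was at 7.76 and 11.2 CPM, a log2 ratio of 0.48 (0.37 to 0.59), which passed 0.5 when 0.1 CPM was added in place of 1 (0.53) and in cells with at least 10000 UMIs (0.50). The other aldolase gene *Aldoa* (1050.0 and 1168 CPM), the triosephosphate isomerase gene *Tpi1* (717 and 816 CPM) and the glucose phosphate isomerase gene *Gpi1* (504 and 495 CPM) had ratios of 0.15, 0.19 and -0.026.

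The lower enzymes, which extract ATP and end in pyruvate and lactate, lay on either side of 0. *Pgk1*, phosphoglycerate kinase (chrX:106187100-106203699, plus strand), was at 20.6 CPM (19.8 to 21.4) in *Fcmr+/+* and 33.4 CPM (32.4 to 34.5) in *Fcmr-/-* cells, a log2 ratio of 0.67 (0.61 to 0.74). *Eno1*, an enolase, was at 367 and 489 CPM (0.41). *Gapdh* (3074 and 2897 CPM), *Pgam1* (1068 and 1002 CPM), *Pkm* (1369 and 1367 CPM) and *Ldha* (1123 and 1149 CPM) had ratios between -0.092 and 0.032. Several of these genes, *Gapdh*, *Pgk1* and *Eno1* among them, have near-identical copies in the mouse genome that can cost them reads in the counting, so their levels are uncertain. *Pfkfb3* and *Pfkfb4*, which make an activator of phosphofructokinase, and *Pdk1*, which keeps pyruvate out of the mitochondrial cycle, had ratios of -0.25, -0.039 and -0.074. The glucose transporter gene *Slc2a1* was at 147 and 163 CPM (0.15), and *Slc16a3*, which encodes the lactate exporter MCT4, at 139.9 and 174 CPM (0.31).

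*Hif1a* was at 113 and 134 CPM, a log2 ratio of 0.25 (0.22 to 0.28). The prolyl hydroxylase genes *Egln1* and *Egln3* had ratios of 0.11 and 0.028, and the mitophagy receptor genes *Bnip3* and *Bnip3l* of -0.059 and -0.035. *Ankrd37* (chr8:45996902-46005707, minus strand), an ankyrin repeat gene used as a hypoxia marker, whose start in RefSeq lies inside the GENCODE gene, was at 53.1 CPM (51.8 to 54.4) in *Fcmr+/+* and 38.1 CPM (37.0 to 39.2) in *Fcmr-/-* cells, a ratio of -0.47 (-0.52 to -0.42). *Ndrg1*, another common hypoxia marker, was at 224 and 179.6 CPM (-0.32). In the other direction, the endoplasmic reticulum oxidase gene *Ero1l* was at 159.6 and 199 CPM (0.32) and *P4ha1*, which encodes a subunit of collagen prolyl hydroxylase, at 85.9 and 105 CPM (0.28). *Higd1a*, which encodes a mitochondrial protein, the MYC antagonist gene *Mxi1* and *Ddit4*, an inhibitor of mTOR signaling, had ratios of 0.13, 0.012 and -0.14. The sum of the 11 genes was level while single genes lay on either side of 0.

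Depth per cell differed between the libraries, and deeper cells gave lower ratios for many of these genes. In cells with at least 10000 UMIs (5163 *Fcmr+/+* and 5338 *Fcmr-/-* cells), the median ratio was -0.14 for the HIF response genes and 0.046 for the glycolysis genes. There *Ankrd37* was at -0.55, past 0.5, *Ndrg1* at -0.48 and *Egln3* at -0.20, while *Hk3* was at 0.73 and *Pgk1* at 0.61. The part of depth in these values was not tested.

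To see the genes by macrophage state, cells of both libraries were clustered with the 32 genes and 33 further genes of the pathway left out of the variable genes, giving 10 clusters. Cluster 6 held 683 *Fcmr+/+* and 760 *Fcmr-/-* cells and had the highest level of 10 markers of a hypoxic state (8728 CPM, against 2207 CPM in the lowest cluster). It is called by its number, since its 10 leading genes by fold were 4 hemoglobin genes, *Ifnb1*, *Ifit1*, *Rsad2* and *Ifit2* of the interferon response, *Rhov* and the hypoxia gene *Adm*. The 9 interferon markers summed to 3853 CPM in it, also the highest of the clusters. Hemoglobin summed to 271 CPM in cluster 6 and 3.79 CPM in the other cells. Its cells were shallow, with a median of 9990 UMIs in *Fcmr+/+* and 7443.5 in *Fcmr-/-* cells. The melanoma markers summed to 79.4 CPM in cluster 6, and the clusters ran from 35.9 CPM to 122 CPM in cluster 10. The part of these markers and of depth in the levels below was not tested.

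In cluster 6, all 11 HIF response genes were higher than in the other cells of the same library, in both libraries. Of the glycolysis genes, 14 of 20 were higher in the *Fcmr+/+* and 16 of 20 in the *Fcmr-/-* library, and 0 were lower in either. Over all genes, 8.52% and 12.2% were higher and 33.4% and 29.1% lower. The median log2 ratio was 0.81 and 0.87 for the glycolysis genes and 1.28 and 1.90 for the HIF response genes, while that over all genes was -0.29 and -0.20. At a threshold of 1, 3 and 5 glycolysis genes and 8 and 10 HIF response genes were higher, beside 3.23% and 4.46% of all genes. Cluster 6 was picked by markers of the same response, so these values are a description. The counts at 0.5 were the same without cells that had UMIs of 2 or more hemoglobin genes, without cells that had UMIs of 2 or more melanoma markers, and in cells with at least 10000 UMIs.

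**Figure D2:**
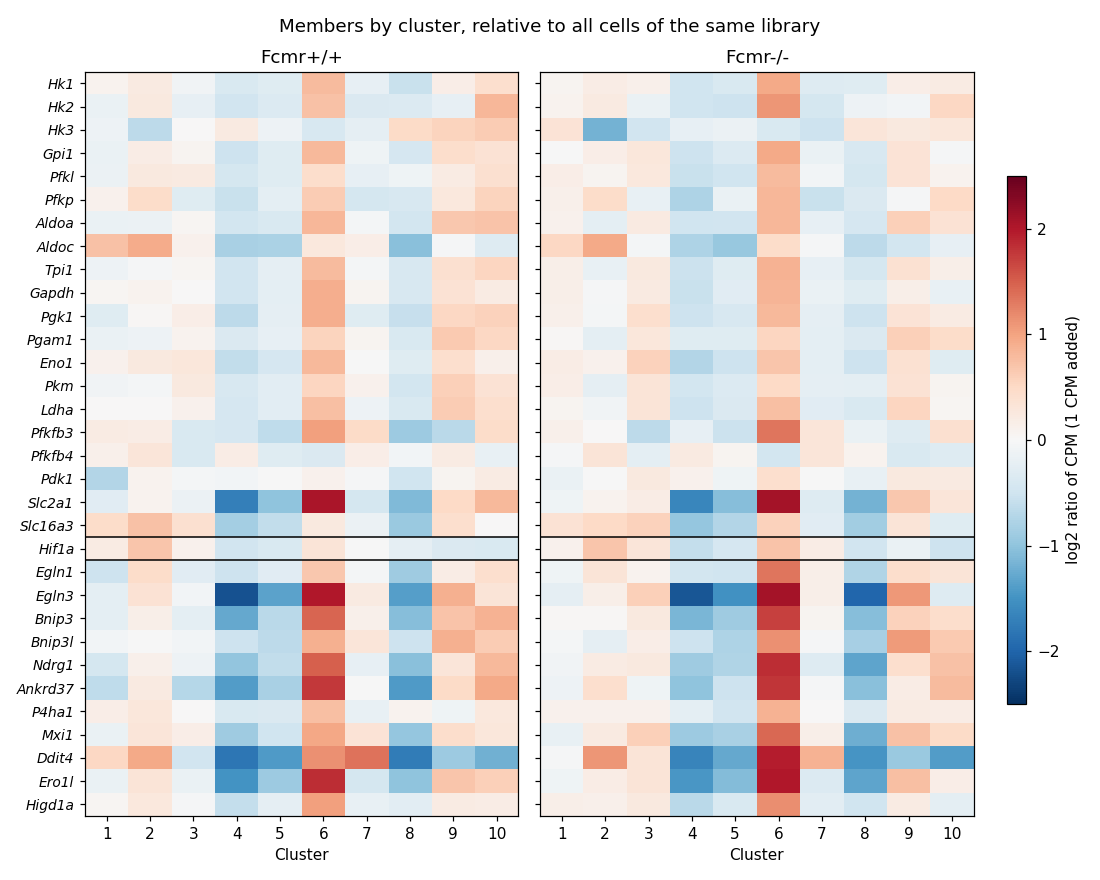
Level of each gene in each of 10 clusters, as the log2 ratio of its CPM to that in all cells of the same library after adding 1 CPM (color), for *Fcmr+/+* (left) and *Fcmr-/-* cells (right). Black lines set off *Hif1a*, with the glycolysis genes above and the HIF response genes below; cluster 6 is red for all but a few genes, among them *Hk3* and *Pfkfb4*, and clusters 4 and 8 are mostly blue.

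The widest ranges between clusters belonged to the glucose transporter and the feedback gene *Egln3*. *Egln3*, which encodes the prolyl hydroxylase PHD3, ran from 10.9 to 214 CPM in *Fcmr+/+* and from 11.5 to 230.2 CPM in *Fcmr-/-* cells between clusters 4 and 6. *Slc2a1* ran from 44.6 to 606 CPM and from 52.0 to 691 CPM between the same clusters, a 13.6-fold and 13.3-fold range. *Ero1l*, also between clusters 4 and 6, ran from 55.7 to 579.8 CPM and from 72.2 to 796 CPM. *Ddit4* ran from 8.17 to 81.0 CPM and from 8.32 to 112 CPM. *Ankrd37* was lowest in cluster 8 and ran from 19.4 to 183 CPM and from 17.8 to 133 CPM. The median range was 1.30 and 1.41 (log2) for the glycolysis genes and 2.52 and 2.83 for the HIF response genes. The median range over all genes was not taken. *Slc2a1* is counted with the glycolysis genes, but its range of 3.73 and 3.71 was wider than that of any other gene of the group, of which the next had 1.98.

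The enzymes had narrower ranges. In *Fcmr+/+* cells *Gapdh* ran from 2207 to 5761 CPM, *Ldha* from 834 to 1884 CPM and *Tpi1* from 518 to 1246 CPM, each from cluster 4 to cluster 6. *Pgam1* was highest in cluster 9 (1691 and 1519.8 CPM), which was led by *Plpp3*, *Mfge8*, *Npy*, *Cd200* and *Mmp12*. In all, 12 of 20 glycolysis genes in *Fcmr+/+* and 16 of 20 in *Fcmr-/-* cells were highest in cluster 6, as were 9 and 11 of 11 HIF response genes. The exceptions among the latter were *Ddit4*, highest in cluster 7 (81.0 CPM), and *Bnip3l*, highest in cluster 9 (387 CPM), both in *Fcmr+/+* cells. The share of all genes that were highest in cluster 6 was not counted. *Hif1a* ran from 80.2 to 184 CPM and from 88.1 to 219 CPM. In *Fcmr+/+* cells it was highest in cluster 2, led by *Ccl17*, *Cd209a* and *Il1r2*. In *Fcmr-/-* cells clusters 6 (219 CPM) and 2 (217 CPM) were about level, with overlapping counting intervals.

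A few genes of the pathway had another pattern. In cluster 6, *Hk3* was at 60.1 CPM against 81.1 CPM in the other *Fcmr+/+* cells and at 102 against 135 CPM in the other *Fcmr-/-* cells (log2 -0.43 and -0.40). *Pfkfb4* was at 7.65 against 10.3 CPM and 6.94 against 10.0 CPM (-0.39 and -0.47). Both lay below 0 but short of the threshold. *Pdk1* (0.11 and 0.45) and *Aldoc* (0.29 and 0.49) also stayed under 0.5 in both libraries, and *Pfkl* (0.48 and 0.86) and *Slc16a3* (0.26 and 0.63) passed it in *Fcmr-/-* cells alone, a difference between the libraries that was not tested. *Aldoc* was highest in cluster 2 (15.7 and 22.7 CPM).

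A second ordering of the cells used no clusters. A score was made from 15 hypoxia genes outside the 32, among them *Vegfa*, *Hilpda*, *Mif*, *Plin2* and *Adm*, after thinning every cell to 5000 UMIs, and the cells of both libraries were divided into 10 bins with shared limits. From the lowest to the top bin, the summed glycolysis genes went from 6262 to 16783 CPM in *Fcmr+/+* and from 6081 to 17026 CPM in *Fcmr-/-* cells. The summed HIF response genes went from 618 to 3298 CPM and from 539 to 3699.7 CPM. By gene, 18 of 20 glycolysis genes and 11 of 11 HIF response genes were higher by at least 1 in the top bin in each library, beside 4.47% and 6.42% of all genes. The median log2 ratio was 1.45 and 1.55 for the glycolysis genes and 2.10 and 2.91 for the HIF response genes, against -0.20 in either library over all genes. Cells of 1 library are not replicates, so no test was made.

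**Figure D3:**
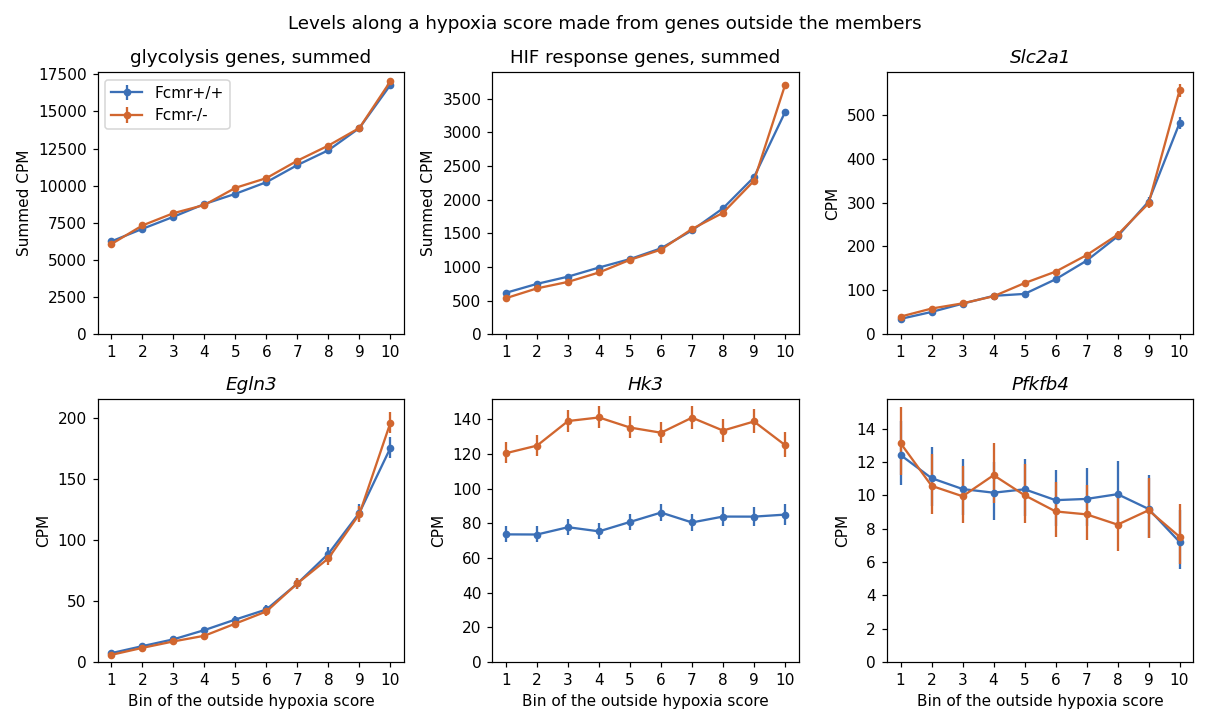
CPM in cells ordered from bin 1 (lowest) to bin 10 (top) by a score of 15 hypoxia genes outside the 32, for the summed glycolysis genes, the summed HIF response genes and 4 single genes, with bars for exact 95% counting intervals. The sums, *Slc2a1* and *Egln3* climb toward bin 10, *Hk3* has no such slope and lies higher in *Fcmr-/-* cells in all 10 bins, and *Pfkfb4* is lower in bin 10 than in bin 1.

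Along this score the HIF response genes again had wide ranges. *Egln3* went from 7.20 to 176 CPM in *Fcmr+/+* and from 5.82 to 197 CPM in *Fcmr-/-* cells (log2 4.43 and 4.86), with a higher level at each of the 9 steps between bins. *Slc2a1* went from 35.3 to 481 CPM and from 40.5 to 555 CPM (3.73 and 3.74). *Ankrd37* (3.51 and 3.36), *Ero1l* (3.49 and 3.93), *Bnip3* (3.27 and 3.49) and *Ndrg1* (2.80 and 3.34) followed, while *P4ha1* (1.34 and 1.45) and *Higd1a* (1.61 and 1.73) had differences like those of the enzymes. In *Fcmr+/+* cells so did *Bnip3l*, which went from 136 to 369 CPM, and in *Fcmr-/-* cells it went from 103 to 425 CPM. Among the enzymes the differences were 1.32 and 1.32 for *Gapdh*, 1.44 and 1.57 for *Ldha*, 1.84 and 1.77 for *Hk2* and 1.68 and 1.62 for *Hk1*, but 0.21 and 0.055 for *Hk3*. *Pfkfb4* was the only one of the 32 genes with a lower level in the top bin, going from 12.4 to 7.20 CPM in *Fcmr+/+* and from 13.1 to 7.52 CPM in *Fcmr-/-* cells (-0.71 and -0.73), beside 23.8% and 27.7% of all genes lower by at least 0.5. Its relative *Pfkfb3* lay in the other direction (1.58 and 1.53). *Hif1a* differed by 0.79 and 1.08.

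In single cells thinned to 5000 UMIs, the median cell held 47 glycolysis UMIs and 5 HIF response UMIs in the *Fcmr+/+* library and 51 and 5 in the *Fcmr-/-* library. In cluster 6 the medians were 89 and 16 in *Fcmr+/+* and 91 and 19.5 in *Fcmr-/-* cells. Pearson's r between the sums over cells was 0.72 in each library, and between 0.45 and 0.71 within the clusters of a library. These are descriptions over 6352 and 7999 cells that share a library.

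The genotypes were then compared within each state. Over all genes, the share higher by at least 0.5 in *Fcmr-/-* cells was 6.73% in cluster 1, 2.95% in cluster 3, 9.77% in cluster 6, 8.2% in cluster 7, 6.38% in cluster 8 and 5.07% in cluster 10. The share lower was 6.54%, 3.67%, 3.55%, 5.35%, 6.16% and 3.78% in the same clusters. Clusters 1, 8 and 9 held only 148, 74 and 158 *Fcmr+/+* cells. Clusters and bins divide the same libraries, so the same sign in many of them does not replicate a difference. The share of all genes with the same sign in all clusters or all bins was not counted.

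*Hk3* had a higher level in *Fcmr-/-* cells in all 10 clusters, by 0.21 (cluster 2, 50.4 and 58.6 CPM) to 1.19 (cluster 1, 73.3 and 168 CPM), with a counting interval above 0 in each. The same held in each of the 10 bins, by 0.55 to 0.90. *Pgk1* likewise had a higher level in all 10 clusters, by 0.30 (cluster 10, 31.1 and 38.5 CPM) to 1.11 (cluster 1, 16.6 and 36.8 CPM), and in all 10 bins, by 0.46 to 0.87. *Pfkl*, *Pfkp*, *Hk1* and *Aldoc* also had ratios above 0 in all 10 clusters, with counting intervals above 0 in 8, 7, 5 and 4 of them. Genes with small ratios could keep their sign as well. Over the 10 bins *Aldoa* had ratios of 0.047 to 0.18 and *Gapdh* of -0.17 to -0.027. In cells with at least 10000 UMIs the ratios over the 10 clusters were 0.19 to 1.19 for *Hk3* and 0.35 to 1.08 for *Pgk1*.

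**Figure D4:**
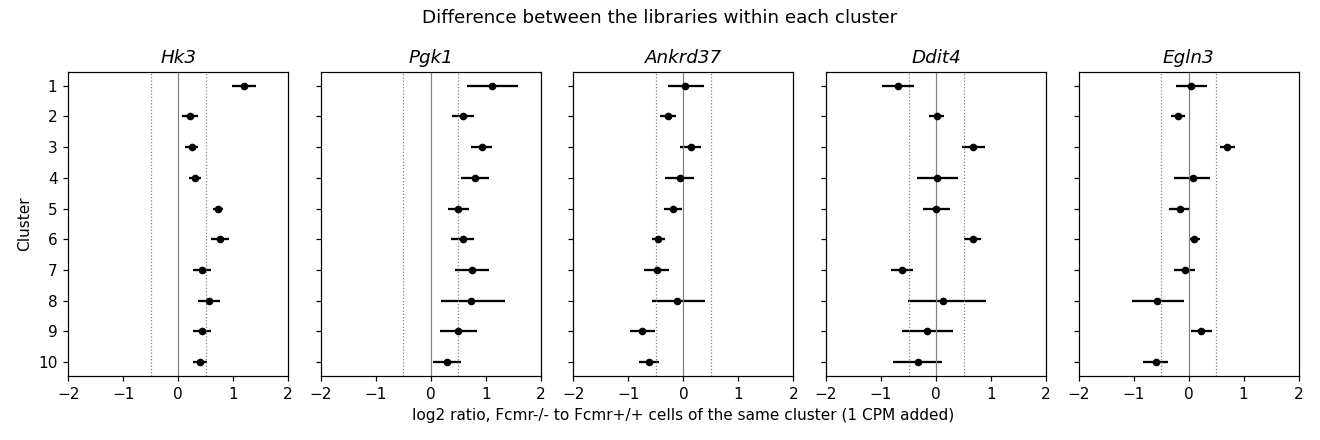
Ratio (log2, 1 CPM added) of *Fcmr-/-* over *Fcmr+/+* cells within each of 10 clusters for 5 genes, with bars for exact 95% counting intervals and dotted lines at 0.5 in each direction. *Hk3* and *Pgk1* lie right of 0 in each cluster, *Ankrd37* lies left of 0 in 8, and *Ddit4* and *Egln3* lie on both sides.

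*Ankrd37* had a lower level in *Fcmr-/-* cells in 8 of 10 clusters and in all 10 bins. The ratio was -0.75 in cluster 9 (73.9 and 43.6 CPM), -0.63 in cluster 10 (103 and 66.6 CPM) and -0.46 in cluster 6 (183 and 133 CPM), and 0.13 in cluster 3 and 0.032 in cluster 1. *Ndrg1* had a lower level in 7 of 10 clusters and all 10 bins, with a ratio of -0.57 in the lowest bin (86.3 and 57.9 CPM) and -0.029 in the top bin (609 and 597 CPM). *Ero1l* and *P4ha1* had higher levels in *Fcmr-/-* cells in 9 of 10 clusters and all 10 bins. For *Ero1l* the ratio in the lowest bin was 0.0057, and it was -0.089 in the lowest bin drawn again from cells with at least 10000 UMIs.

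In cluster 6 the HIF response genes summed to 3451 and 4100.5 CPM in *Fcmr+/+* and *Fcmr-/-* cells, a log2 ratio of 0.25 (0.22 to 0.27), and the glycolysis genes summed to 17337 and 17754 CPM (0.034). By gene, the median ratios were close to each other, 0.26 for the HIF response genes and 0.25 for the glycolysis genes, beside 0.072 over all genes. The glycolysis sum is led by *Gapdh*, which was at 5761 and 5202 CPM (-0.15). Here 5 of 20 glycolysis genes (*Hk3*, *Pfkl*, *Aldoc*, *Pgk1* and *Slc16a3*) and 2 of 11 HIF response genes (*Egln1* and *Ddit4*) were higher by at least 0.5, and 0 were lower. The shares of all genes in cluster 6 were 9.77% higher and 3.55% lower. In the 341 *Fcmr+/+* and 198 *Fcmr-/-* cells of cluster 6 with at least 10000 UMIs, the ratio of the HIF response sums was 0.18 and that of the glycolysis sums 0.0025.

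Other states differed in either direction. In cluster 3, led by *Csf3*, *Cxcl3* and *Serpinb2*, the HIF response genes summed to 1254 and 1651 CPM (0.40, interval 0.37 to 0.43), with 3 of 11 higher (*Egln3*, *Ddit4* and *Ero1l*) and 0 lower, and the glycolysis genes to 10653 and 12362 CPM (0.21). In cluster 10, led by *Wfs1*, *C77080* and *Cdk18*, the sums were lower in *Fcmr-/-* cells, at 2029.7 and 1734 CPM for the HIF response genes (-0.23, interval -0.26 to -0.19) and 13292 and 10934 CPM for the glycolysis genes (-0.28). There 2 of 11 HIF response genes were lower (*Ankrd37* and *Egln3*) and 0 higher, and of the glycolysis genes *Aldoc* was higher (0.61). Of the glycolysis genes in cluster 3, *Pgk1* (0.92) and *Eno1* (0.70) were higher and *Pfkfb3* (-0.52) lower. The shares of all genes were 2.95% higher and 3.67% lower in cluster 3, and 5.07% and 3.78% in cluster 10.

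The other 7 clusters had ratios between -0.19 and 0.14 for the HIF response sum and between -0.18 and 0.20 for the glycolysis sum. The median ratio of the glycolysis genes was above 0 in all 7, from 0.046 to 0.26, and in clusters 2, 4, 5, 7 and 9 it had the opposite sign to their sum. The median over all genes was also above 0 in all 7, from 0.00045 to 0.080. In cluster 9 the medians were 0.091 for the glycolysis genes and 0.080 over all genes, and in cluster 7 they were 0.063 and 0.044. In cells with at least 10000 UMIs the ratio of the HIF response sums was 0.30 in cluster 3 and -0.23 in cluster 10. Differences between clusters were not tested. In cluster 1 the genes higher by at least 0.5 were *Hk3*, *Pfkl*, *Pgk1* and *Egln1*, and *Ddit4* was lower (45.1 and 27.4 CPM, -0.70). In cluster 7 *Pfkl* (0.53) and *Pgk1* (0.74) were higher and *Ddit4* (-0.62) lower, beside 8.2% of all genes higher and 5.35% lower. In cluster 8 *Hk1*, *Hk3*, *Aldoc* and *Pgk1* were higher, and *Egln3* (-0.58) and *Ndrg1* (-0.59) lower. There *Aldoc* had only 6 UMIs in *Fcmr+/+* cells, and the counting interval of its ratio, -0.055 to 2.23, included 0. In clusters 2 and 4 *Aldoc* and *Pgk1* were higher by at least 0.5, and in cluster 5 *Hk3* and *Pgk1*. In cluster 9 *Pfkl* (0.52) and *P4ha1* (0.59) were higher, and *Pfkfb4* (-0.63) and *Ankrd37* (-0.75) lower. No share of all genes is given here for clusters 2, 4, 5 and 9.

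Along the outside score, the ratio of the HIF response sums was -0.20 (-0.24 to -0.15) in the lowest bin and 0.17 (0.14 to 0.19) in the top bin, and between -0.14 and 0.019 in the bins between. The ratio of the glycolysis sums lay between -0.042 and 0.060 in all 10 bins. By gene, the median ratio of the glycolysis genes was above 0 in each bin, from 0.053 to 0.17. The median over all genes was not taken by bin. In the top bin the median of the glycolysis genes was 0.14 and that of the HIF response genes 0.20. In the lowest bin 2 of 11 HIF response genes were lower (*Ndrg1* and *Mxi1*) and 0 higher, beside 4.01% and 4.03% of all genes. In the top bin 1 was lower (*Ankrd37*) and 0 higher, beside 4.88% and 5.25%. *Mxi1* was at 43.1 CPM in *Fcmr+/+* and 29.4 CPM in *Fcmr-/-* cells in the lowest bin (-0.54) and at 162 and 228 CPM in the top bin (0.48).

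Depth moved with this result. Cells of the top bin had a median of 13407 UMIs in the *Fcmr+/+* and 8612 in the *Fcmr-/-* library. The score was then standardized and the bins drawn again in cells with at least 10000 UMIs alone. The ratio of the HIF response sums was -0.23 in the lowest and -0.028 in the top of these bins. This top bin held 557 *Fcmr+/+* and 494 *Fcmr-/-* cells. In its *Fcmr+/+* cells *Egln3* was at 140 CPM, against 176 CPM in the main top bin. Depth and bin limits changed together, so their parts cannot be told apart. In the bins of deeper cells *Ankrd37* was at -0.68 in the top bin and -0.53 in the lowest, and *Mxi1* at 0.27 and -0.52.

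Of 33 further genes of the pathway, 20 reached 5 CPM in either library and 0 differed by 0.5 between the libraries, with a median log2 ratio of -0.0023. In the top bin against the lowest, where 21 passed in *Fcmr+/+* and 20 in *Fcmr-/-* cells, 3 were higher and 4 lower in the former and 7 higher and 4 lower in the latter. Of all genes, 10.5% and 13.8% were higher and 23.8% and 27.7% lower, so the share of these genes that was lower did not exceed that of all genes. *Vhl*, whose product recognizes hydroxylated HIF-1α, was at 9.70 and 21.8 CPM (1.09) in the lowest and the top bin in *Fcmr+/+* cells and at 10.3 and 24.2 CPM (1.16) in *Fcmr-/-* cells. The phosphoglucomutase gene listed as *Pgm2* was at 24.4 and 72.9 CPM (1.54) and 24.0 and 91.9 CPM (1.89). *G6pdx*, the entry enzyme of the pentose phosphate pathway, lay in the other direction, at 60.0 and 39.4 CPM (-0.60) and 57.4 and 38.0 CPM (-0.58).

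Over the 20 groups of cells made by cluster and library, the genes most like the summed glycolysis genes by Pearson's r were *Bsg* (0.963), *Sdc1* (0.949), *Eif4ebp1* (0.947), *Rala* (0.937) and *Card19* (0.931). *Bsg* encodes basigin, a partner protein of lactate transporters. Those most like the summed HIF response genes were *Tnfrsf23* (0.966), *Alkbh5* (0.963), *Eif4ebp1* (0.957), *Wwc1* (0.957) and *Bsg* (0.956). They came from 6449 genes, and the 20 groups share libraries and depth, so the values are descriptions. Among the 32 genes, *Slc2a1* had its highest r with a HIF response gene at 0.99, while *Hk3* and *Pfkfb4* had a median r of 0.012 and -0.48 with the other glycolysis genes.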

How the data were processed

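Single-cell libraries were made with a droplet-based 3′ method. The deposited values are raw UMI counts per gene and cell, which the authors obtained by mapping to GRCm38. The submitters' processing notes name Cell Ranger and Seurat 2.1.0. Each molecule is counted once, so levels do not depend on transcript length.

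Cells with 200 to 7000 genes and at most 30% mitochondrial UMIs were kept, after the study's limits. Clusters came from Seurat 5.3.0 in R 4.3.3 (1313 variable genes, scaling to 10000 UMIs, 10 components, resolution 0.8); with the members, 18 of them would have been among 1336 variable genes. Cluster 5 held dividing cells. UMIs were summed per group (Python 3.11.15, numpy 2.4.6, scipy 1.17.1, pandas 2.3.3). Levels carry exact Poisson intervals and log2 ratios exact conditional binomial intervals. The score was a mean of standardized log levels of the 15 of 18 listed genes with at least 5 CPM, and no cell was too shallow for it. Scrublet (scanpy 1.11.5, expected 6%) called 0 doublets in either library and so did not work, and leaving out the 5% of cells with the highest scores was tried instead. The calculations were tested on simulated data. All 32 genes are named; other genes come from lists or are the 5 with the highest r among genes with at least 20 CPM in a group. The genes, lists and markers were chosen with earlier results of these data known. Alternatives varied the pseudocount, filter, scaling, cells, clusters, bins and threshold.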

Additional observations from a re-analysis of the deposited data

Results flagged for a closer look

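*Egln3* and *Ddit4* were higher in *Fcmr-/-* cells in some clusters and lower in others, by at least 0.5 (log2) each way with counting intervals apart from 0. The difference between clusters was not tested. This rule was applied only to the glycolysis genes, *Hif1a* and the HIF response genes, and it takes each gene's most extreme clusters. Of all genes, 2.95% were higher by at least 0.5 in cluster 3, while 6.54% were lower in cluster 1 and 3.78% in cluster 10. The share of all genes that would meet the rule both ways was not counted, so how unusual *Egln3* and *Ddit4* are is unknown. *Ddit4* was at 21.9 and 35.6 CPM in *Fcmr+/+* and *Fcmr-/-* cells of cluster 3 (0.68) and at 45.1 and 27.4 CPM in cluster 1 (-0.70). It was also higher in cluster 6 (0.67) and lower in cluster 7 (-0.62). In cells with at least 10000 UMIs its ratios were 0.74 in cluster 3, -0.63 in cluster 1, 0.15 in cluster 6 and -0.91 in cluster 7. *Egln3* was at 50.2 and 82.4 CPM in cluster 3 (0.70) and at 66.1 and 43.2 CPM in cluster 10 (-0.60), and its ratios in the deeper cells were 0.46 and -0.60. In cluster 8, with 74 *Fcmr+/+* cells, it was at 19.9 and 13.0 CPM (-0.58).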

How the results depend on the processing

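No paired analysis was possible because each genotype has 1 library. Of the 32 genes, 22 had a ratio between the libraries of the same sign under each alternative; *Hk3* ranged from 0.52 to 0.78, *Pgk1* from 0.59 to 0.72 and *Ankrd37* from -0.55 to -0.28. A threshold of 0.25 gave 8 glycolysis genes higher and 1 lower and 2 HIF response genes higher and 2 lower, a pseudocount of 0.1 CPM gave 3 glycolysis genes higher, *Aldoc* added, and a threshold of 1 gave 0 glycolysis genes higher and, in cluster 6, 3 (*Fcmr+/+*) and 5 (*Fcmr-/-*). The mean of each cell's share moved the medians to 0.20 (glycolysis) and 0.082 (HIF response). Cells with at least 10000 UMIs gave 0.046 and -0.14 and 1 HIF response gene lower, and 1 was also lower without the dividing cluster; both times it was *Ankrd37*. Without cluster 6 the medians were 0.18 and -0.037, and with clusters weighted equally that of the HIF response genes was -0.029. Each other clustering picked partly other cells. Of the picked cluster, 46.5% to 96.5% lay in cluster 6, and it held only 55.2% to 68.6% of the cells of cluster 6. In the picked cluster 13 to 15 glycolysis genes and 10 or 11 HIF response genes were higher, which describes those cells and not cluster 6. The HIF response ratio in the top bin, under alternatives chosen after seeing the data, was -0.028 in cells with at least 10000 UMIs, 0.096 without cluster 6, 0.074 with 5 bins and 0.19 without *Mif* and *Plin2* in the score; in the lowest bin it was between -0.23 and -0.16. Bins were drawn again wherever the cells, the number of bins or the score genes changed. The causes were not tested. Leaving out shared barcodes or cells with UMIs of 2 or more hemoglobin genes was also added after seeing the data and moved no count.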
